A study of Mus musculus with 75 samples.

Results

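Chromatin was examined around 5 genes that mark astrocytes, Slc1a3, Slc1a2, Aqp4, Gfap and Sox9. A region belonged to a gene if it overlapped a fixed mm9 window around that gene by 1 bp or more. Given a window, its regions were thus taken by position and not by any measured value. The genes and windows themselves were chosen with earlier results of these data known. This gave 53 of the 126368 H3K27ac regions (12 for Slc1a3, 19 for Slc1a2, 4 for Aqp4, 10 for Gfap and 8 for Sox9) and 17 of the 48634 ATAC regions (3, 4, 1, 5 and 4 in the same order of genes). All 53 and all 17 were strong enough to be tested.

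The nuclei came from hypothalami of LepRcre/+; SUN1-sfGFP/+ mice, in which Cre expressed from the leptin receptor locus switches on a fluorescent tag of the nuclear envelope. All groups carry both alleles, and no group without the tag is part of the design. Pooled hypothalami were sorted into GFP-positive nuclei, labelled LepRb positive, and GFP-negative nuclei, labelled LepRb negative. The tag records Cre activity at any earlier time in a cell's history, and GFP-negative nuclei are all other hypothalamic nuclei, neurons and glia together. There were 4 treatments. Fed mice ate freely for 36 h; the treatment text gives no injection for them, while their label also reads saline. Fast mice were fasted for 36 h and received saline at 12, 24 and 34 h. Lep2 mice were fasted for 36 h and received leptin at 5 mg/kg at 34 h. Their titles carry the code SSL, where Fast and Fed carry SSS and Lep24 carries LLL, and the treatment text does not say whether Lep2 mice had saline at the earlier times. Lep24 mice were fasted for 36 h and received leptin at 5 mg/kg at 12, 24 and 34 h. Each of the 8 groups of treatment and sort had 2 libraries in each assay, so each sort had 8 libraries. The labels used here do not say whether the 2 libraries of a group came from separate pools of mice, so p-values speak of the spread among these samples alone, and that spread may be technical.

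Astrocytes clear glutamate from synapses, buffer potassium and water and contact blood vessels. SLC1A3 (GLAST) and SLC1A2 (GLT-1) are their glutamate transporters, AQP4 is the water channel of their vessel-facing endfeet, GFAP is their intermediate filament protein, and SOX9 is a transcription factor of glial fate that adult astrocytes keep. In the hypothalamus, tanycytes and ependymal cells that line the third ventricle also use several of these genes, Slc1a3 and Sox9 among them. H3K27ac marks active promoters and enhancers, and ATAC signal marks open chromatin.

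The values were the authors' normalized signal per region and library, so read depth was unknown. Summed over all regions, an H3K27ac library held a signal of 9247619 to 10963340, and an ATAC library one of 1232939 to 1415507. The first replicate of Fed, of Lep2 and of Lep24, in either sort, made a set of 6 H3K27ac libraries unlike the remaining 10. The share of signal in mitochondrial regions was 0.075 to 0.238% in the set and 0.0102 to 0.0384% outside it, and that of the X chromosome was 0.70 to 0.86% in the set and 1.11 to 1.42% outside it. Results that rest on them are given with and without these 6 libraries.

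Promoter sequences are shown for Slc1a3 and Gfap, the genes with the largest and the smallest H3K27ac difference between the sorts. They are RefSeq sequences of build GRCm38.p6, which is not the build of the deposited regions, so no region was placed on them. Each is the 250 bases before the listed start, 5′ to 3′ on the gene's strand. Capitals mark matches to a STAT motif (TTCNNNGAA) or a SOX motif (ACAAT), each searched on both strands. STAT3 is the transcription factor through which the leptin receptor signals.
Slc1a3, chr15:8710808-8711057, minus strand: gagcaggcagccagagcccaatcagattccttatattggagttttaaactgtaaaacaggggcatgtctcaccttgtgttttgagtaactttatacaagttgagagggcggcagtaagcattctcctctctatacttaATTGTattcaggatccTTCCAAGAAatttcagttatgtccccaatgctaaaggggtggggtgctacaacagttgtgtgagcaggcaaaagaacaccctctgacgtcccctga
Gfap, chr11:102897201-102897450, minus strand: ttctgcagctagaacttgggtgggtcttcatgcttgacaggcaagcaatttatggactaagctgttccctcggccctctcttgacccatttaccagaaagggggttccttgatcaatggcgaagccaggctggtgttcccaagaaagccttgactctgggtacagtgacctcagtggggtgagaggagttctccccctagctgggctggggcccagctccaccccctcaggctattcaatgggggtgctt
The Slc1a3 stretch held 1 STAT match, 96 to 88 bases before the start, and 1 SOX match, 112 to 108 bases before it. The Gfap stretch held 0 of either. The short motif TTGGC of nuclear factor I, a factor family of astrocyte development, had 0 matches in both stretches. Among 32841 promoter stretches of the same length, 7.02% held the STAT motif, 27.7% the SOX motif and 41.5% the nuclear factor I motif, and the motifs did not overlap one another in Slc1a3. These matches describe the letters and are not binding sites. The RefSeq table used held a promoter for 3 of the 5 genes, the other being Slc1a2.

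H3K27ac was lower in GFP-positive than in GFP-negative nuclei at 19 of the 53 regions and higher at 0 (limma adjusted p under 0.05). That was 35.8% of the regions, against 9.22% of all 113731 regions tested, where 5.96% were called lower and 3.26% higher. The loss was uneven among the genes. Slc1a3 had 9 of 12 regions called lower, Slc1a2 had 3 of 19, Aqp4 had 3 of 4, Gfap had 0 of 10 and Sox9 had 4 of 8. Of the 53 regions, 10 were called lower by at least 2-fold (18.9%, against 1.74% of all regions), 9 of them in the Slc1a3 window and 1 in the Slc1a2 window. The median log2 difference, GFP-positive minus GFP-negative, was -0.43 over the 53 regions and 0.03 over all regions tested. In bulk sorted nuclei, fewer nuclei of a type and less signal per nucleus cannot be told apart. No windows of other cell types' markers were at hand, so the part of cell composition in these differences was not tested.

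**Figure D1:**
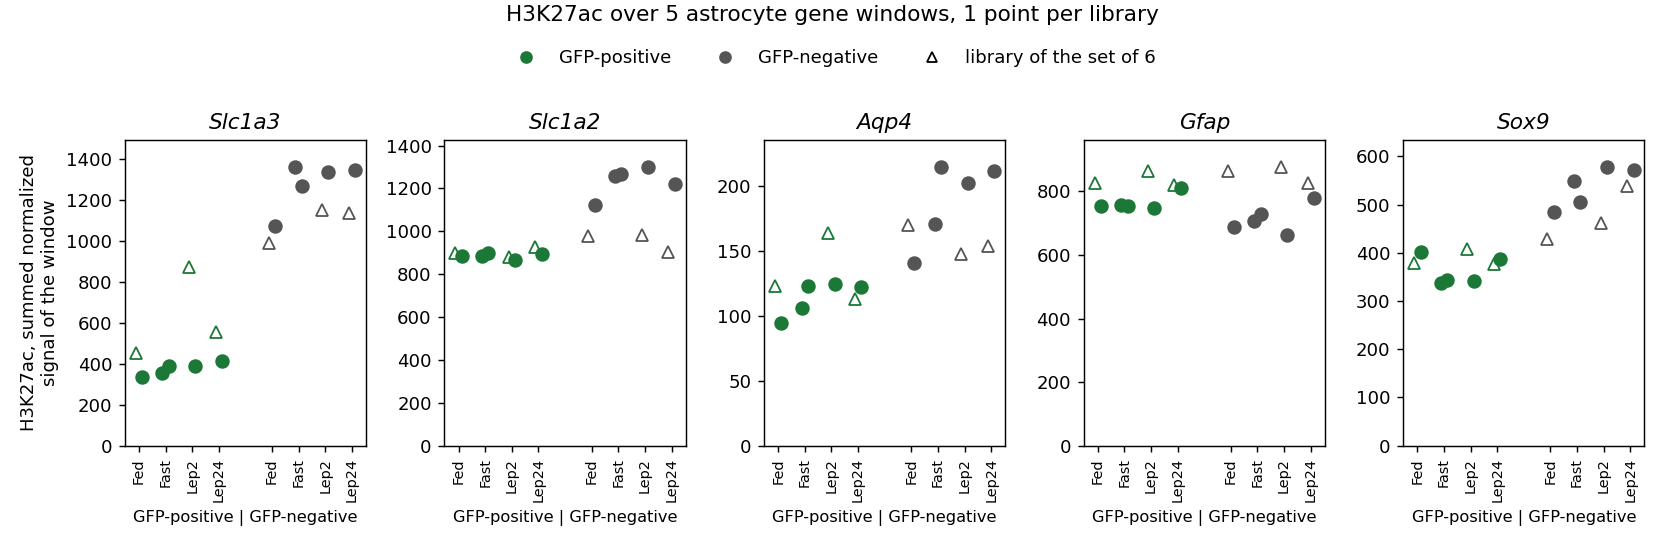
Summed H3K27ac normalized signal of each gene's window (vertical axes, each from 0) for every library, by treatment, with GFP-positive libraries left of GFP-negative ones; open triangles are the 6 libraries that stand apart. For Slc1a3 all 8 GFP-positive sums (335.5 to 873.5) lie below all 8 GFP-negative sums (988.6 to 1357.3), while for Gfap the sorts overlap.

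Per kb of region, Gfap carried the most H3K27ac of the 5 windows in GFP-positive nuclei and Slc1a3 the least. The summed signal per kb in GFP-positive libraries was 20.2 ± 1.11 for Gfap, 15.9 ± 1.19 for Sox9, 14.6 ± 0.291 for Slc1a2, 11.8 ± 1.96 for Aqp4 and 7.76 ± 2.92 for Slc1a3 (mean ± SD, n = 8 libraries). Gfap lay above Sox9 in 8 of 8 libraries without overlap, and Aqp4 lay above Slc1a3 in 8 of 8, whereas Sox9 exceeded Slc1a2 in 6 of 8. All regions of a window were counted in these levels, those crossing its edge included. In GFP-negative libraries the levels were 22.0 ± 2.29 for Sox9 and 19.9 ± 2.30 for Slc1a3. They were 19.5 ± 2.10 for Gfap, 18.5 ± 2.56 for Slc1a2 and 17.1 ± 2.85 for Aqp4. Sox9 lay above Slc1a3 in 8 of 8 of these libraries (mean difference 2.09, SD 1.22), with overlapping ranges. Slc1a3, Gfap, Slc1a2 and Aqp4 were not in a constant order there, and neighbours differed in the stated order in 3 to 5 of 8 libraries. The 2 Gfap regions that cross the window's edge carried 13.6 and 13.2 per kb over both sorts, against 34.6 in its strongest region. The Gfap level without them was not computed, so its place in either order is shown only with them counted.

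Slc1a3, the glutamate transporter GLAST, had the largest difference of the 5 genes. Its window summed to 335.5 at the lowest, 400.2 at the median and 873.5 at the highest in GFP-positive libraries, against 988.6, 1206.3 and 1357.3 in GFP-negative libraries. The sorts did not overlap, and the GFP-positive sum was 0.389 of the GFP-negative sum on average. The region at chromosome 15, 8650955 to 8659532, carried 20.9, 35.6 and 88.4 (lowest, median and highest) in GFP-positive libraries and 132.6, 202.5 and 233.1 in GFP-negative libraries. Every GFP-positive library lay below every GFP-negative one. Its log2 difference was -2.27 (SE 0.28, limma adjusted p = 0.00111), which ranked 4 of 113731 from the lowest. The region with the most Slc1a3 signal, 8602079 to 8613300, carried 39.5, 51.0 and 164.9 in GFP-positive libraries and 174.3, 227.2 and 247.0 in GFP-negative libraries. The sorts did not overlap here either, and the log2 difference was -1.82 (SE 0.26, limma adjusted p = 0.00179).

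The other 7 called Slc1a3 regions had log2 differences of -1.71 to -1.13. The 3 regions that were not called had -0.84, -0.34 and -0.06, of which 8575556 to 8580102 was among the stronger regions of the window with a mean of 90.0 ± 16.4 for GFP-positive and 119.7 ± 41.1 for GFP-negative nuclei (SD, n = 8 libraries each). In 8 of the 12 regions, the GFP-positive library was the lower one for every treatment and replicate number. The share of all tested regions with this pattern was not computed, and the labels tie the replicate numbers of the sorts to nothing shared. Densest per kb was a short region chosen here after its values were seen, 8659533 to 8660967, with a mean signal of 47.5 per kb. Its mean was 32.0 ± 12.2 for GFP-positive and 104.3 ± 51.9 for GFP-negative nuclei, a log2 difference of -1.57 (SE 0.31, limma adjusted p = 0.00898).

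**Figure D2:**
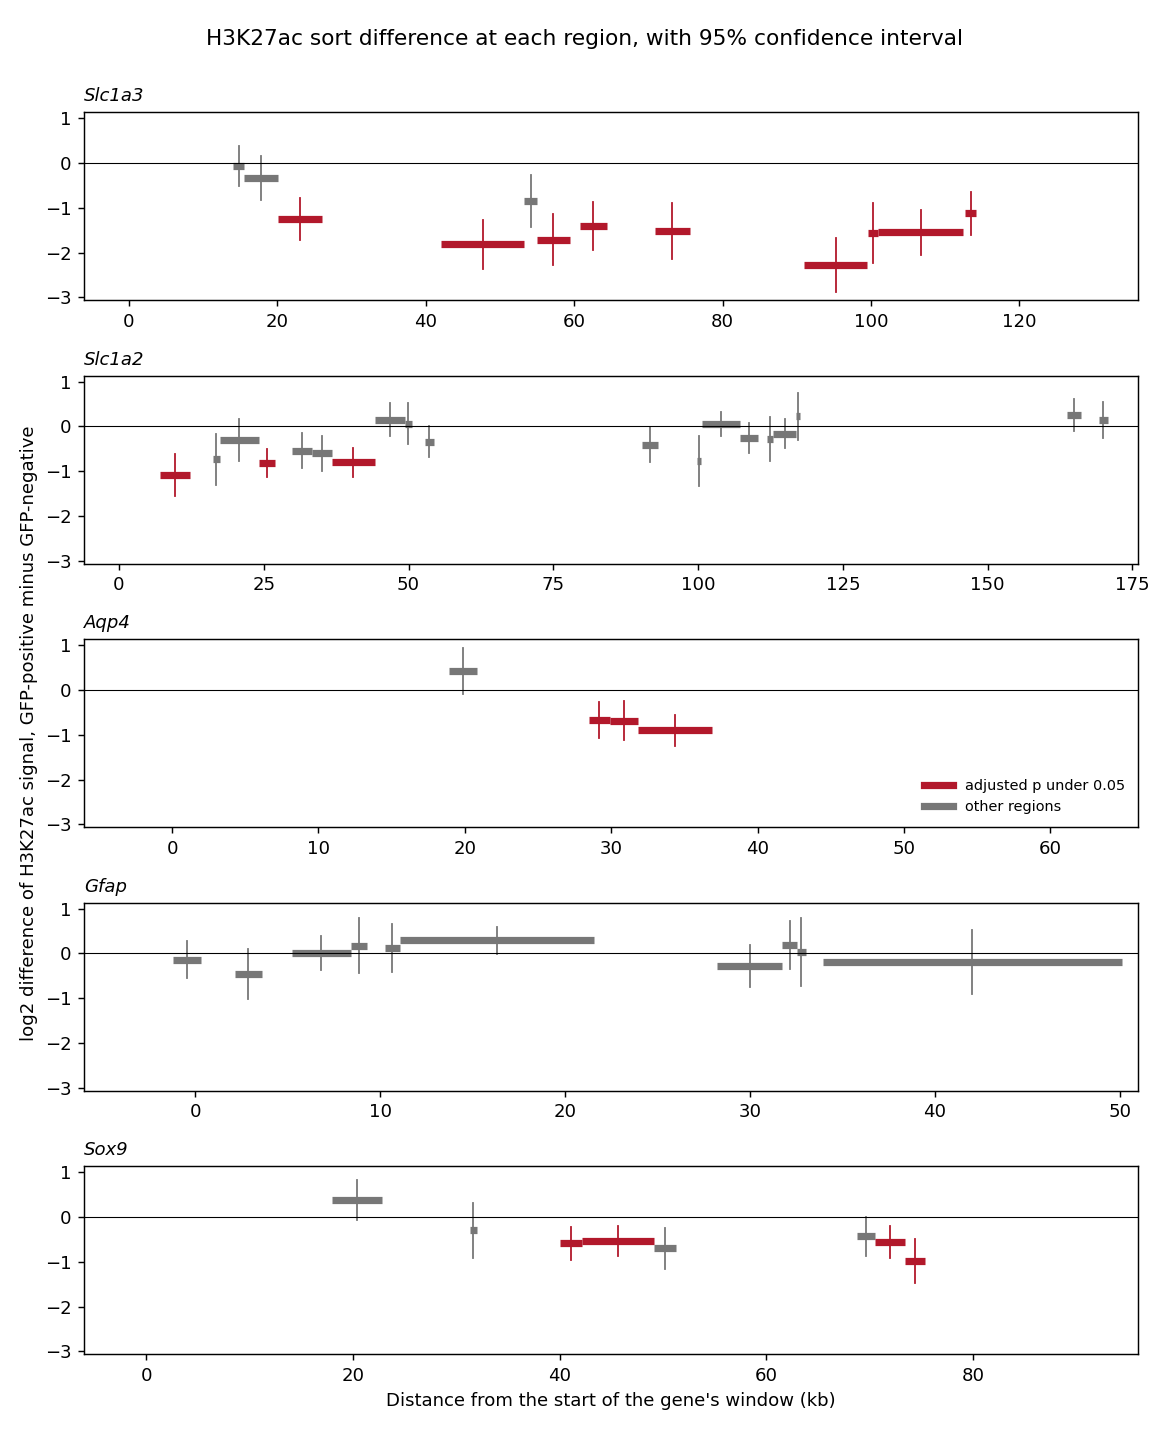
Log2 difference of H3K27ac, GFP-positive minus GFP-negative, for each of the 53 regions (horizontal bars, as wide as the region) with its 95% confidence interval (vertical lines), against the distance in kb from the start of the gene's window; red bars are called at an adjusted p under 0.05. The called Slc1a3 regions (log2 -2.27 to -1.13) spread over most of the window, those of Slc1a2 lie in its first part, and Gfap has none.

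Slc1a2, the glutamate transporter GLT-1, differed at some regions only, all near the low-coordinate end of its window. The window summed to 866.7, 890.3 and 927.9 (lowest, median and highest) in GFP-positive libraries and 903.5, 1173.1 and 1298.7 in GFP-negative libraries. The GFP-positive sums were close to one another, and the lowest GFP-negative sum fell within their range. At chromosome 2, 102504137 to 102506965, the signal was 12.3, 18.3 and 22.9 in GFP-positive libraries and 28.4, 31.8 and 40.2 in GFP-negative libraries, with no overlap and a log2 difference of -0.82 (SE 0.15, limma adjusted p = 0.00502). At 102516713 to 102524251 it was 41.8, 59.8 and 96.6 in GFP-positive libraries and 97.4, 111.8 and 118.9 in GFP-negative libraries, also with no overlap, and the log2 difference was -0.80 (SE 0.15, limma adjusted p = 0.00729). These and the Slc1a3 pair above were the 4 regions of the 53 in which every GFP-positive library lay below every GFP-negative one (7.55%, against 1.65% of all regions tested), and in 0 regions did every one lie above (0.674% of all). The strongest Slc1a2 region, 102497372 to 102504136, which directly adjoins the first of them, averaged 256.6 ± 55.8 for GFP-positive and 328.8 ± 113.5 for GFP-negative nuclei (SD, n = 8 libraries each). Its log2 difference of -0.30 (SE 0.22) was not called (limma adjusted p = 0.438). Of the 19 Slc1a2 regions, 13 had log2 differences below 0, and the range was -1.09 to 0.25.

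Aqp4, the water channel gene, had 4 H3K27ac regions on chromosome 18, of which 3 that adjoin one another were lower in GFP-positive nuclei. The widest, 15561801 to 15566866, carried 37.6, 38.7 and 78.2 (lowest, median and highest) in GFP-positive libraries and 65.9, 86.5 and 100.9 in GFP-negative libraries. Only the highest GFP-positive library, Lep2 replicate 1, reached into the GFP-negative range. The log2 difference was -0.91 (SE 0.17, limma adjusted p = 0.00572). The neighbouring regions 15558471 to 15559889 and 15559890 to 15561800 had log2 differences of -0.68 and -0.69 (limma adjusted p = 0.0388 and 0.0473). The fourth region, 15548941 to 15550824, averaged 35.0 ± 11.1 for GFP-positive and 25.4 ± 7.23 for GFP-negative nuclei, a log2 difference of 0.43 that was not called (limma adjusted p = 0.292).

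Gfap, the gene of the filament protein by which astrocytes are often recognised, had no region called in either direction in the fit of all 16 libraries with 8 group means. Its strongest region, at chromosome 11, 102741058 to 102751576, carried 289.6, 411.5 and 466.8 (lowest, median and highest) in GFP-positive libraries and 235.0, 353.4 and 385.7 in GFP-negative libraries. The ranges overlapped, and the GFP-positive library had the higher value for each of the 8 combinations of treatment and replicate number. How many of all tested regions do so was not computed, and the labels tie the replicate numbers of the sorts to nothing shared. The log2 difference was 0.29 (SE 0.14) with a limma adjusted p of 0.21. With the 6 libraries that stood apart as a term in the fit, its SE was 0.064 and the region was called higher (limma adjusted p = 0.0013). In the authors' deposited table the same region had a log2 fold change of 0.33 with an FDR of 0.0175. The smallest p among the others belonged to 102732150 to 102733614, with means of 14.0 ± 5.00 for GFP-positive and 19.2 ± 6.21 for GFP-negative nuclei and a log2 difference of -0.46 (SE 0.26, limma adjusted p = 0.305). The window's sum was 792 ± 43.5 for GFP-positive and 766 ± 82.4 for GFP-negative nuclei. It includes a region that runs past the window's edge, 102763929 to 102780117, named here after its values were seen, which carried 247.8 to 445.0 in the 6 libraries that stood apart and 97.4 to 169.7 in the other 10. Without the 2 regions that cross an edge, the sum was 575 ± 73.4 for GFP-positive and 516 ± 61.1 for GFP-negative nuclei.

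Sox9, the transcription factor gene, was lower in GFP-positive nuclei at 4 of 8 regions, by less than Slc1a3. Its strongest region, at chromosome 11, 112642176 to 112649112, carried 138.8, 164.2 and 205.0 (lowest, median and highest) in GFP-positive libraries and 175.3, 273.4 and 318.1 in GFP-negative libraries, with overlapping ranges. The log2 difference was -0.54 (SE 0.15, limma adjusted p = 0.0447). The difference was larger at 112673448 to 112675374, with 6.9, 13.4 and 28.2 in GFP-positive libraries, 19.9, 31.8 and 44.1 in GFP-negative libraries and a log2 difference of -0.99 (SE 0.23, limma adjusted p = 0.0188). The calls depended on single libraries. When each of the 16 libraries was left out in turn, the call at 112673448 to 112675374 held in 12 of 16 fits. The other 3 calls lay near the threshold (limma adjusted p of 0.0447 to 0.0466) and held in 2 or 3 of 16. In all, 0 to 3 Sox9 regions were called, with 0 without Fed replicate 2, Fast replicate 1 or Lep24 replicate 2 of the GFP-positive libraries. Aqp4 had 1 to 3 calls under the same procedure, Slc1a2 3 to 6, Slc1a3 9 to 10 and Gfap 0. All 9 called Slc1a3 regions and the 3 called Slc1a2 regions kept their calls in all 16 cases.

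The regions may also belong to other genes. In RefSeq order the nearest protein-coding neighbours are Nipbl and Ranbp3l for Slc1a3, Pamr1 and Cd44 for Slc1a2, Kctd1 and Chst9 for Aqp4, Fam187a and Kif18b for Gfap, and Gm11677 and Slc39a11 for Sox9. Further RefSeq genes overlap 2 of the 5 (A830021F12Rik at Aqp4, LOC115489466 and Gm13872 at Slc1a2), and others lie nearer than the protein-coding neighbours, such as the lncRNA genes Gm46508 and Gm31340 on either side of Slc1a3. A region was tied to its gene by the window alone, and exon, intron or promoter was not assigned, because no mm9 annotation was used.

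The sort difference at Slc1a3, Slc1a2 and Aqp4 was smaller in the 6 libraries that stood apart. In their 3 pairs of the same treatment and replicate number, the GFP-positive sum of the Slc1a3 window was 0.455 to 0.761 of the GFP-negative sum. In the other 5 pairs it was 0.261 to 0.313. For Slc1a2 the ratio was 0.899 to 1.03 in the set and 0.667 to 0.787 outside it. For Aqp4 it was 0.724 to 1.11 in the set and 0.574 to 0.67 outside it. Gfap ratios were 0.955 to 0.996 in the set and 1.04 to 1.13 outside it, from sums that include the 2 regions crossing the window's edge. Without those 2 regions the Gfap ratio was 0.993 to 1.19 over all 8 pairs and above 1 in 7 of them. It was not computed by set, so the split of the Gfap ratios is shown only with these regions counted. The Sox9 ratios overlapped between the set and the other pairs, at 0.702 to 0.885 and 0.59 to 0.827. With both the set and its product with the sort in the fit, a test chosen after seeing the data, the log2 sort difference at 8650955 to 8659532 was 1.83 less negative inside the set (SE 0.25, limma adjusted p = 0.000519). Of the 53 regions, 4 differed in this way (7.55%, against 1.63% of all regions tested), namely 3 of Slc1a3 and 1 of Slc1a2, and all 4 had the smaller loss inside the set. Beside this, 3 GFP-positive libraries of the set had the 3 highest Slc1a3 sums of their sort, 449.8 in Fed, 873.5 in Lep2 and 555.3 in Lep24. The part of these libraries' chromatin or sequencing quality in that difference was not tested.

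Without the 6 libraries, 30 of the 53 regions were called, 27 lower and 3 higher in GFP-positive nuclei (56.6%, against 32.5% of all regions tested). Fed, Lep2 and Lep24 then had 1 library against 1, so this fit of 8 group means left 2 residual degrees of freedom, both from Fast, and its p-values assume that the single libraries vary as the Fast ones do. With additive terms for treatment and sort instead, added after seeing the data, there were 5 residual degrees of freedom and again 30 calls, 27 lower and 3 higher (32.4% of all regions tested). In the fit of group means, Slc1a3 had 11 of 12 regions called lower, Slc1a2 8 of 19, Aqp4 3 of 4, Gfap 0 of 10 and Sox9 5 of 8. The log2 difference at the Slc1a3 region 8650955 to 8659532 was -2.96 (SE 0.13, limma adjusted p = 1.02e-11). The 3 regions called higher were the strongest Gfap region at 0.26 (SE 0.05, limma adjusted p = 0.000663), the fourth Aqp4 region at 0.63 (limma adjusted p = 0.0179), and the Sox9 region 112617968 to 112622792 at 0.58 (limma adjusted p = 0.0018), the last named after its values were seen. Within the 6 libraries alone, 6 regions were called, all lower and all of Slc1a3 (11.3%, against 4.1% of all regions tested). That fit had additive terms for treatment and sort and 2 residual degrees of freedom, and in it 8650955 to 8659532 differed by -1.17 on the log2 scale (SE 0.18, limma adjusted p = 3.62e-05).

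**Figure D3:**
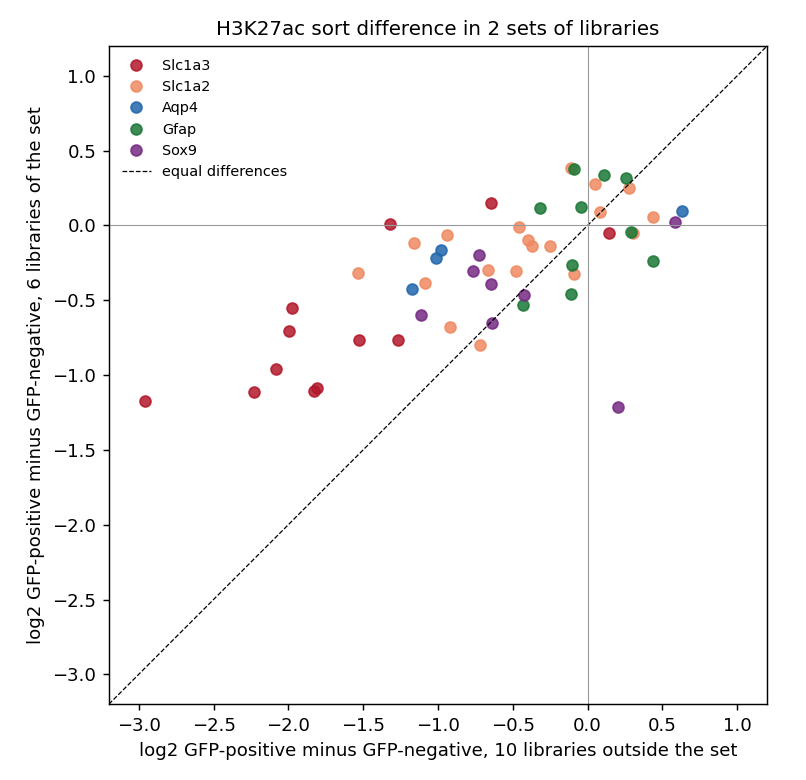
Log2 H3K27ac difference, GFP-positive minus GFP-negative, of each of the 53 regions in the 6 libraries that stand apart (vertical axis) against the other 10 libraries (horizontal axis); points are coloured by gene and the dashed line marks equal differences. Most Slc1a3 points lie left of and above the line, such as the one at -2.96 in the 10 libraries and -1.17 in the 6.

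In the authors' deposited table, 43 of the 53 regions had an FDR for GFP-positive against GFP-negative. Of these, 18 were lower and 2 higher at an FDR under 0.05 (41.9% and 4.65%, against 9.11% and 6.25% of all regions with an FDR in the authors' deposited table). The authors' deposited table gives the Slc1a3 region 8650955 to 8659532 a log2 fold change of -2.49 (FDR 7.77e-07). The 2 higher regions there were the strongest Gfap region and the Sox9 region 112617968 to 112622792, and this Sox9 region has a log2 fold change of 0.59 and an FDR of 0.0438 in the authors' deposited table.

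Few ATAC regions were called between the sorts. Of the 17 ATAC regions, 1 was called lower in GFP-positive nuclei and 0 higher (5.88%, against 9.79% of all 43770 regions tested), a share near the background. The called one was a Gfap region, 102735773 to 102736810, with 9.5, 15.8 and 26.3 (lowest, median and highest) in GFP-positive libraries and 20.0, 24.0 and 28.0 in GFP-negative libraries. The ranges overlapped, the log2 difference was -0.52 (SE 0.17, limma adjusted p = 0.0488), and the call held in 2 of the 16 fits that left out 1 library. It lies inside an H3K27ac region of Gfap, 102735221 to 102738404, whose log2 difference was 0.01. The strongest ATAC regions of Gfap and Slc1a2 had log2 differences of 0.06 and -0.21, with limma adjusted p of 0.851 and 0.281. A further Gfap region, 102748916 to 102750341, averaged 29.8 ± 4.98 for GFP-positive and 25.8 ± 4.33 for GFP-negative nuclei (SD, n = 8 libraries each). For 12 of the 17 ATAC regions the authors' deposited table held an FDR for GFP-positive against GFP-negative, and 0 were under 0.05. Of all 34310 ATAC regions with an FDR there, 0.286% were lower and 0.122% higher.

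The 3 Slc1a3 ATAC regions had lower means in GFP-positive libraries, with log2 differences of -0.38, -0.43 and -0.36, and limma adjusted p of 0.351, 0.173 and 0.53. None of them lies in a Slc1a3 H3K27ac region called lower, and the deposited ATAC table held no region inside those 9. The only Aqp4 region, 15550213 to 15550633, carried 6.1, 11.9 and 18.5 in GFP-positive libraries and 2.2, 6.5 and 9.9 in GFP-negative libraries. Its log2 difference was 0.79 (SE 0.27) with a limma adjusted p of 0.0624, in the same direction as the H3K27ac region it lies in. The other 3 Slc1a2 regions had log2 differences of -0.07 to -0.05. Of the 4 Sox9 regions, 112642837 to 112643872 had a log2 difference of -0.66 (SE 0.22, limma adjusted p = 0.0562), while 112644055 to 112644346, 112646076 to 112646680 and 112672564 to 112673181 had -0.14, 0.49 and 0.32.

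**Figure D4:**
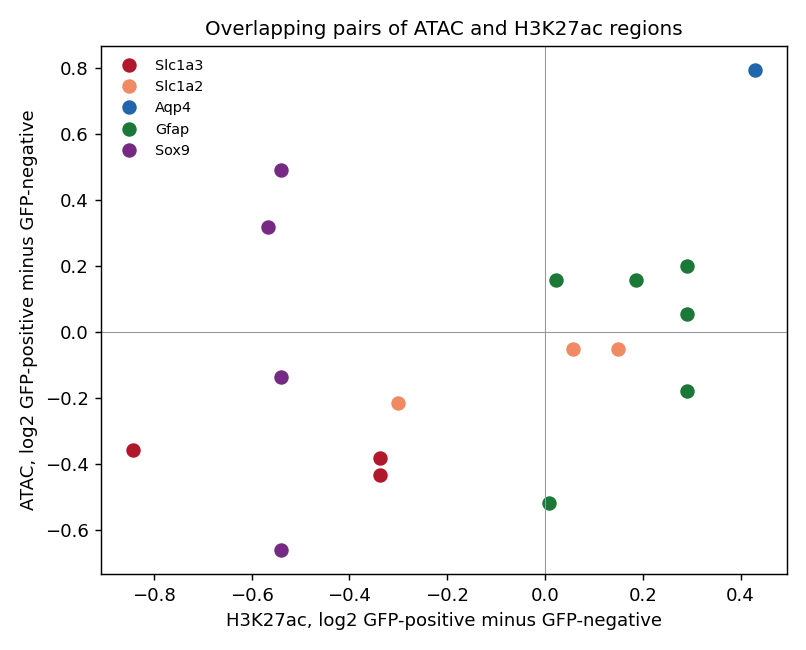
Log2 difference, GFP-positive minus GFP-negative, of ATAC regions (vertical axis) against that of the H3K27ac region each overlaps (horizontal axis), 1 point per overlapping pair, coloured by gene. Of the 17 pairs, 6 have both differences below 0, 5 have both above 0 and 6 have opposite signs.

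Of the 17 ATAC regions, 16 overlapped an H3K27ac region of the same window by 1 bp or more, which made 17 pairs. The ATAC regions lay in 12 of the 53 H3K27ac regions. Among the 19 H3K27ac regions called lower, 2 held an ATAC region, both in the Sox9 window, and the 4 ATAC regions in them were not called.

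Feeding, fasting and leptin were compared within each sort to see whether chromatin at these genes responds to energy state. In the fit of all 16 libraries, none of the 53 H3K27ac and 17 ATAC regions was called by limma when Fast was set against Fed, or Lep2 or Lep24 against Fast, in either sort, and 0 of all regions tested were called in these comparisons. At an unadjusted p under 0.05, GFP-positive nuclei had 0, 2 and 3 of the 53 H3K27ac regions in the 3 comparisons (1.91%, 3.27% and 2.65% of all regions) and GFP-negative nuclei had 2, 2 and 2 (5.98%, 4.63% and 6.06%). For ATAC the counts were 1, 1 and 1 of 17 in GFP-positive (6.56%, 7.85% and 6.7% of all regions) and 0, 0 and 1 in GFP-negative nuclei (1.97%, 1.5% and 1.49%). The authors' deposited table gives 0 of these regions at an FDR under 0.05 in its leptin comparisons with Fast, as it does of all 126368 H3K27ac and 48374 ATAC regions with an FDR. Lep2 and Lep24 share the Fast libraries as their control.

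The smallest p of Lep24 against Fast in GFP-positive nuclei was at the Sox9 region 112673448 to 112675374, with 23.7 and 22.3 in Lep24 and 6.9 and 10.6 in Fast libraries (log2 change 1.32, SE 0.46, limma adjusted p = 0.942). For Lep2 against Fast it was the Slc1a3 region 8614964 to 8619397, with 66.2 and 13.6 in Lep2 and 10.1 and 15.5 in Fast libraries (log2 change 1.21, SE 0.53, limma adjusted p = 0.923). There 1 of the 2 Lep2 libraries, one of the 6 that stood apart, carried the change, and the other lay between the Fast libraries. For Fast against Fed it was the Sox9 region 112668791 to 112670556, with 10.1 and 10.6 in Fast and 24.5 and 14.3 in Fed libraries (log2 change -0.80, SE 0.40, limma adjusted p = 0.985). The Fed value of 24.5 and the Lep24 value of 23.7 above also came from the 6 libraries that stood apart.

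In GFP-negative nuclei, Lep24 against Fast gave the same Sox9 region, 112668791 to 112670556, with 34.9 and 22.2 in Lep24 and 13.0 and 14.2 in Fast libraries (log2 change 0.98, SE 0.40, limma adjusted p = 0.714). Lep2 against Fast gave the Gfap region 102762537 to 102763010, with 2.2 and 10.2 in Lep2 and 16.9 and 19.9 in Fast libraries (log2 change -1.69, SE 0.71, limma adjusted p = 0.722). Fast against Fed gave the Slc1a3 region 8613301 to 8614963, with 54.5 and 45.2 in Fast and 8.2 and 45.3 in Fed libraries (log2 change 1.29, SE 0.54, limma adjusted p = 0.716). At this Slc1a3 region the Fed library at 45.3 lay between the Fast libraries. The values of 34.9 in Lep24, 2.2 in Lep2 and 8.2 in Fed all came from the 6 libraries that stood apart. With 2 libraries a group the unadjusted 95% confidence interval of a treatment change reached 0.924 log2 units to either side at the median region of the 53. The change of -1.69 log2 units at the Gfap region above also missed the threshold once p was adjusted over all regions.

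By treatment, the Slc1a3 window of GFP-positive nuclei summed to 449.8 and 335.5 in Fed, 353.6 and 389.7 in Fast, 873.5 and 388.0 in Lep2 and 555.3 and 410.7 in Lep24 libraries. In GFP-negative nuclei it summed to 988.6 and 1072.6 in Fed, 1357.3 and 1264.7 in Fast, 1147.9 and 1335.3 in Lep2 and 1133.2 and 1344.4 in Lep24 libraries. Replicate 1 of every treatment but Fast belonged to the 6 libraries, so the treatment and this set are partly confounded. Among replicate 2 libraries alone, GFP-positive sums ran from 335.5 to 410.7 and GFP-negative sums from 1072.6 to 1344.4, both lowest in Fed and highest in Lep24. Gfap sums in replicate 2 libraries were 748.5 to 810.7 in GFP-positive and 661.7 to 778.9 in GFP-negative nuclei.

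As a median over the 53 regions, H3K27ac was lower in GFP-positive nuclei in each treatment. No region was called within a single treatment, where 2 libraries stood against 2. The median log2 sort difference of the 53 regions was -0.40 in Fed, -0.75 in Fast, -0.44 in Lep2 and -0.40 in Lep24, against 0.01 to 0.02 over all regions tested. At an unadjusted p under 0.05 there were 13 of 53 regions in Fed (24.5%, against 7.64% of all regions), 22 in Fast (41.5%, against 13.6%), 8 in Lep2 (15.1%, against 6.87%) and 15 in Lep24 (28.3%, against 7.79%). The Slc1a3 median was -1.34 in Fed, -1.70 in Fast, -1.14 in Lep2 and -1.40 in Lep24. The Gfap median was 0.07 in Fed, -0.15 in Fast, 0.20 in Lep2 and -0.26 in Lep24, and those of the other genes were below 0 in every treatment. Of the 53 regions, 18 were above 0 in Fed, 10 in Fast, 13 in Lep2 and 13 in Lep24. Limma called 0 of 53 regions in each treatment, and 0, 117 (0.103%), 0 and 0 of all regions tested in the same order. The authors' deposited table calls, at an FDR under 0.05, 16 of 40 lower in Fast (6.92% of all regions with an FDR), 5 of 23 in Lep2 (2.57%) and 9 of 28 in Lep24 (3.15%), and 0 higher (3.14%, 1.09% and 1.14% of all).

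Whether a treatment change differed between the sorts was tested directly, and limma called 0 of the 53 H3K27ac regions and 0 of the 17 ATAC regions in any of the 3 comparisons. At an unadjusted p under 0.05 there were 1, 1 and 4 of 53 for H3K27ac (2.36%, 2.37% and 2.17% of all regions) and 1, 1 and 0 of 17 for ATAC (3.95%, 3.98% and 2.98%), for the change with fasting, with Lep2 and with Lep24.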

How the data were processed

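Sorted nuclei gave 16 libraries of H3K27ac by ChIP-seq and 16 of open chromatin by ATAC-seq. Of the series' 75 samples, the 23 RNA samples, 16 ChIP inputs and 4 ATAC inputs were not analysed here. Per the file headers, the authors deposited normalized signal per region and library, and log2 fold changes with p-values and FDR of their own comparisons. The normalization method is not given in the sources used. Values had 1 decimal and low values fell on unequal steps, so whole reads were not recovered, depth is unknown and no count model was used. The 32 columns of stabilized values were not used. Per the submitters' processing notes, the build was mm9 and the tools, tied to no step, were DESeq2 1.16.1, HTSeq 0.6.0, MACS2, Bowtie2 2.2.6, Bowtie 1.2, STAR 2.5.2b and CASAVA 1.8.

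Regions in the lowest 10% by mean (below 5.96 for H3K27ac and 5.44 for ATAC) were left out. Values as log2(signal + 1), a scale that understates changes of weak regions, were fitted with limma 3.58.1 in R 4.3.3 across the whole table, with a mean for each of 8 groups and an intensity-dependent prior, 8 residual degrees of freedom before moderation. P-values are two-sided, adjusted by Benjamini-Hochberg over all regions of a comparison, and called under 0.05. Window sums are descriptions with no test. Positions are mm9 and count from 1, so each deposited start was raised by 1. Promoters were read with Python 3.11.15 and pandas 2.3.3, and plots drawn with matplotlib 3.10.9. The fits were also run on simulated tables with known changes and independent noise in each library. That noise held no shift shared by the 6 libraries, so the run cannot speak to such a shift.

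The genes, windows and comparisons were chosen with earlier results of these data known. The text names, per window and assay, the strongest region, the 2 with the smallest sort p, all regions of windows with up to 4, and the smallest p of each treatment comparison. Each library was left out in turn, a lone library being assumed to vary like the other groups, and further alternatives were pseudocounts of 0.1 and 5, quantile normalization, testing every region, replicate number or pair as a block, library weights, the 6 libraries as a term, their absence or use alone, only the groups compared, and a threshold of 0.01. The test of the set by sort and the additive terms without the 6 libraries were added after seeing the data.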

Additional observations from a re-analysis of the deposited data

Results flagged for a closer look

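Of 76 groups of 8 libraries examined (the window sums and the named regions in each sort), 5 held 1 library far from the others, where chance alone sets apart about 1 group in 20. Lep2 GFP-positive replicate 1, one of the 6 H3K27ac libraries that stand apart, was the high one in 3 of them. Its Slc1a3 window summed to 873.5, with 555.3 as the nearest GFP-positive value. Its Aqp4 window summed to 163.5, next to 124.4, and the Aqp4 region 15561801 to 15566866 carried 78.2, next to 52.7. The other cases were GFP-negative libraries. Fed replicate 2 was low at the Slc1a3 region 8602079 to 8613300 with 174.3, next to 225.7. Lep24 replicate 1 was high at the Slc1a2 region 102504137 to 102506965 with 40.2, next to 33.5.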

How the results depend on the processing

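The 19 calls between the sorts among H3K27ac regions, all lower in GFP-positive nuclei (9.22% of all regions called), were 13 to 20 when 1 library was left out in turn, 31 with the 6 libraries as a term (29 lower and 2 higher, 26.6% of all), 30 without them (27 lower and 3 higher, 32.5%, or 32.4% with additive terms) and 6 in them alone (all lower, 4.1%). Within single treatments, where 0 were called, the calls over the 4 treatments together were 23 with library weights (3.55% of tests over all regions), 44 with the 6 libraries as a term (4.63%), 28 with only the groups compared in the fit (5.17%), 72 without the 6 (11.3%), where 3 treatments had 1 library against 1 and the spread came from Fast, and 0 to 8 with 1 library left out. The ATAC count of 1, a lower call (9.79% of all regions), was 3 under quantile normalization (11.4%) and under a pseudocount of 5 (11.8%). In both, a Gfap and a Sox9 region were lower and the Aqp4 region was higher. The count was 0 with no filter (6.33%), with a pseudocount of 0.1 (6.64%) and at an adjusted p under 0.01 (3.11%). It was 0 to 2 with 1 library left out, where the Aqp4 region was called higher in 3 of 16 fits. The cause was not tested. No alternative run gave a call for a treatment change or its difference between sorts.

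The replicate numbers were not taken as pairs, because the labels tie them to nothing shared and not every correlation was above 0.1: that of same-numbered libraries' deviations between the sorts was 0.452 in Fed, 0.00978 in Fast, 0.495 in Lep2 and 0.367 in Lep24 for H3K27ac, and 0.0377, 0.0924, 0.141 and 0.113 for ATAC. For H3K27ac, the correlations of 0.367 to 0.495 belong to the treatments whose replicate 1 is among the 6 libraries that stand apart. With the replicate number as a block, 24 H3K27ac regions were called for the sort (16.2% of all regions) and 10 within single treatments (0.841%). Of those for the sort, 1 was higher, a Gfap region. With the pair of libraries as a block, 29 were called for the sort (24.4%), among them 1 Gfap and 1 Sox9 region called higher. ATAC had 3 calls with the replicate number as a block (14.2%) and 3 with the pair (14%), in both a Gfap and a Sox9 region lower and the Aqp4 region higher.

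Quantile normalization turned the sign of the log2 sort difference at the Gfap H3K27ac region 102762537 (-0.01229) and at the ATAC regions Gfap 102747283 (0.02564), Slc1a2 102525758 (0.02382) and 102565323 (0.06351) and Sox9 112644055 (0.02333). Leaving out 1 library gave -0.05178 to 0.1642 at Gfap 102741982, -0.2751 to 0.1713 at Slc1a2 102525758, -0.1501 to 0.01406 at 102565323, -0.1699 to 0.06849 at 102585302 and -0.2978 to 0.02454 at Sox9 112644055. Unknown depth gives no counting interval for any value.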

Other observations

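The regions whose signal ran most like a gene's window across the 16 libraries, taken from other chromosomes, are given as a description. For the Slc1a3 H3K27ac sum they lay at 55274877 to 55283081 on chromosome 1 (Pearson's r 0.991, log2 sort difference -1.92) and at 95910274 to 95926013 on chromosome 3 (r 0.99, log2 sort difference -1.46). For Slc1a2 they lay on chromosomes 1 and 16 (r 0.979 and 0.972, log2 sort differences -1.57 and -1.14), for Aqp4 on chromosomes 19 and 12 (r 0.945 and 0.941, log2 sort differences -1.27 and -0.96) and for Sox9 on chromosomes 15 and 10 (r 0.962 and 0.956, log2 sort differences -1.34 and -0.59). For Gfap they lay on chromosomes 19 and 17 (r 0.972 and 0.959) with log2 sort differences of 0.09 and 0.14. The libraries behind these values share sort, treatment and membership of the set of 6, so the correlations carry no test.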
